A study of Mus musculus with 12 samples.

Results

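The genes described here are 10 genes of prostaglandin and leukotriene synthesis and signalling, Ptgs1, Ptgs2, Alox5, Alox5ap, Ltc4s, Alox15, Ptger2, Ptger3, Ptger4, and Ptgdr2, in eosinophils of the mouse small intestine (SI). They were found by their symbols, each on 1 row, among the 36047 rows of the table, of which 26372 carried a symbol and 15249 passed the filter of an average normalized count above 10. All 10 passed that filter. RNA sequencing had been done on 12 libraries of eosinophils sorted from the SI of wild type female C57BL/6J mice, each from 2 pooled mice, with 4 libraries for each of 3 subsets. The subsets were α4β7+, which carries the gut-homing integrin α4β7, α4β7− CD22−, which lacks both surface proteins, and CD22+, which carries the lectin CD22; the study took them as approximately younger, intermediate, and older cells in the tissue. All mice were on standard chow and of the same genotype, so the comparisons are between subsets of 1 tissue. How far the level of these lipid mediator genes differed between the subsets was the question asked of the table.

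Prostaglandins and leukotrienes are short-lived lipid mediators made from arachidonic acid, which phospholipases free from membranes. Cyclooxygenases turn it into prostaglandin H2, the precursor of all prostanoids, while 5-lipoxygenase with its activating protein FLAP makes leukotriene A4, which is then turned into leukotriene B4 or, by leukotriene C4 synthase, into the cysteinyl leukotrienes. Eosinophils are known as a source of cysteinyl leukotrienes and of lipids made by Alox15, and they respond to prostaglandins D2 and E2 through G protein-coupled receptors.

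RefSeq promoters on GRCm38.p6 were matched for 8 of the 10 genes, not for Alox5ap or Alox15, and 4 of the genes that differed between subsets are printed here, since Ptgs2 moved against the other 3. Each line gives the 250 bases before the start site, 5′ to 3′ on the strand of the gene, which is the plus strand for all 4. The positions are chr2:36230176-36230425 for Ptgs1, chr1:150099781-150100030 for Ptgs2, chr14:44987861-44988110 for Ptger2, and chr3:157566626-157566875 for Ptger3. Capitals mark matches to GCGTG, the core of the aryl hydrocarbon receptor element, on either strand.
Ptgs1: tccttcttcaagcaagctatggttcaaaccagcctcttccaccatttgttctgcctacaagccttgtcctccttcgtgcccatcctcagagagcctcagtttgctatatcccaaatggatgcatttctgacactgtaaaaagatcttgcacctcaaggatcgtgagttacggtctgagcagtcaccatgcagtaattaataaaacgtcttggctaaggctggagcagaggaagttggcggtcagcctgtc
Ptgs2: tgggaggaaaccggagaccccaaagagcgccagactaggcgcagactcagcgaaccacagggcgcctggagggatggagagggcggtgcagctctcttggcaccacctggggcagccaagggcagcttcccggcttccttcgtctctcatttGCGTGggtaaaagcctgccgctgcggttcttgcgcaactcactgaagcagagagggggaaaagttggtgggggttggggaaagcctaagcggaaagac
Ptger2: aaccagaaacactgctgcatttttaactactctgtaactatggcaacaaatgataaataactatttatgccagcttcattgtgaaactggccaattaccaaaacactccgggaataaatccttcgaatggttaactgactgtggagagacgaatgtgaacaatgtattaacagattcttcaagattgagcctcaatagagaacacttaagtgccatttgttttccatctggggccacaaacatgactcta
Ptger3: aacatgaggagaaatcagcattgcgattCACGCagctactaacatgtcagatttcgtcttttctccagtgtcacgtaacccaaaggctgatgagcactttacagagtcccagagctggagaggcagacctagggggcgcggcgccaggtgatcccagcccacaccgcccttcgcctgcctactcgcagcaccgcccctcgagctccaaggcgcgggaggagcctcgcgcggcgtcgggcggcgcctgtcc
Of these 250 bases, 61.6% were G or C in Ptgs2, with 13 CpG dinucleotides, and 62.0% in Ptger3, with 21, whereas Ptgs1 had 48.0% with 5 and Ptger2 had 38.0% with 3. The median over 32851 promoters was 52.4% with 6 CpG. Both strands from 250 bases before to 50 after the start were searched for GCGTG and for 6 other motifs. AP-1 was searched as TGANTCA, which 7.81% of all promoters hold. The cAMP response element was searched as TGACGTCA (1.79% of promoters) and the NF-κB element as GGANTTTCC (1.25%). The STAT element was searched as TTCNNNGAA, held by 8.30%. The motif of GATA factors was searched as AGATAA, held by 11.2%. For the E-box the letters were CACGTG, held by 7.15%. GCGTG was found in Ptgs2, 98 bases before the start, and on the minus strand of Ptger3. There it reads CACGC on the printed strand, with its first base at position -222. The E-box was found once, in Ptgs2 at position 17 after the start. No other match was found in the 8 promoters, so that 2 of 8 held GCGTG, which 32.4% of all promoters hold. The matches in Ptgs2 do not overlap, and a match is a description of the letters only.

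Deposited values summed to between 15783607 and 16915755 per α4β7+ library, 15011473 and 15740374 per α4β7− CD22− library, and 14286474 and 14758267 per CD22+ library, so that the subsets differed in total without overlap. A single read was worth about 0.852 to 1.159, so that the floor of 3 reads lay between 2.556 and 3.477. All values of the 10 genes were above that floor. The genes of the sorted proteins were highest in the subset named for the protein. Cd22 averaged 1115, 4462, and 13334 going from α4β7+ through α4β7− CD22− to CD22+ libraries. It was thus also 3.97-fold higher in α4β7− CD22− than in α4β7+ libraries, although both lack the CD22+ label. In the same order, Itgb7, the β7 chain of the integrin, averaged 2526, 220.4, and 155.8, and Itga4, the α4 chain, fell less, from 37469 to 29433 and 26876. All 12 listed eosinophil genes passed the filter. The surface genes Siglecf (6884 to 8594) and Ccr3 (10103 to 28671) were abundant in every library, whereas the granule genes Epx (58.72 to 173.0) and Prg3 (12.10 to 45.70) and the ribonuclease genes Ear1 (5.505 to 70.46) and Ear6 (4.716 to 70.45) were low. The summed list, which holds Alox15 itself, had lower values in the same order of subsets as Alox15 and Ptgs2, from 113762 to 128691 in α4β7+ over 90859 to 98851 in α4β7− CD22− to 71504 to 78880 in CD22+ libraries. Within the list, Alox15 averaged 30556, 18333, and 11077 normalized counts in these subsets and Ccr3, a chemokine receptor, 25121, 15187, and 10773. Siglecf averaged 7534, 7827, and 7340, Adgre1 16843, 16665, and 13996, and Itgam 35143, 32738, and 30066. Il5ra averaged 2864, 2272, and 1793, Prg2 352.4, 185.1, and 109.7, and Epx 149.7, 129.2, and 68.90. Ear1 averaged 60.44, 21.95, and 12.07, Ear2 74.74, 57.93, and 29.76, and Ear6 60.75, 21.15, and 12.86. Prg3 averaged 33.77 in α4β7+ and 24.87 in CD22+ libraries. Every gene of the list thus averaged lower in CD22+ than in α4β7+ libraries, Siglecf and Prg3 with overlap. The part of the list in the differences of Alox15 and Ptgs2 was not tested. Among mast cell genes, Tpsb2 was at 0 in all 12 libraries, Mcpt1 in 11, and Cpa3 in 8, and of 10 listed only Kit passed the filter. Among the 3 basophil genes, Mcpt8 was at 0 in all 12 libraries and Prss34 in 11, and Cyp11a1 passed the filter at 21.18 to 72.94. In bulk samples, fewer cells of a type and less RNA per cell cannot be told apart. The p-values below measure the spread between these libraries, and limma's moderated test with Benjamini-Hochberg adjustment over the 15249 genes was used for single genes, on log2(normalized count + 1). A call needed a change of 1.5-fold or more with an adjusted p no higher than 0.05.

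Across the 10 genes, 6 were called in at least 1 comparison and 4 in none, and the shares of all genes called are given below for each comparison. Of those not called, Alox5 and Ptgdr2 passed the adjusted p but not the size threshold in CD22+ against α4β7+. Ptgs1, Ptger2, and Ptger3 were higher and Ptgs2 and Alox15 lower in α4β7− CD22− than in α4β7+ eosinophils, and CD22+ eosinophils, compared with the same α4β7+ libraries, had higher Ptgs1, Ptger2, and Ptger3 and lower Ptgs2, Alox15, and Alox5ap. Between CD22+ and α4β7− CD22− eosinophils, Alox15 was lower, and Ptger3 was higher with an adjusted p close to the threshold, a call that several alternatives did not keep. Thus 3 of 10 were called higher in α4β7− CD22− than in α4β7+, where 3.70% of all genes tested were, and 2 lower, where 4.35% were. For CD22+ against α4β7+ the counts were 3 higher, beside 5.60% of all genes, and 3 lower, beside 6.39%. For CD22+ against α4β7− CD22− they were 1 higher and 1 lower, beside 0.210% and 0.393%. The genes were chosen with earlier results known, so these shares are descriptions. The median log2 fold change of the 10 was -0.01, -0.09, and -0.08 in the 3 comparisons, next to 0.00, 0.01, and 0.00 over all genes, since the rises and falls offset each other. The 4 libraries of both subsets did not overlap for 7 of the 10 genes in the first comparison (18.8% of all genes), for 8 in the second (22.9%), and for 6 in the third (6.37%).

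**Figure D1:**
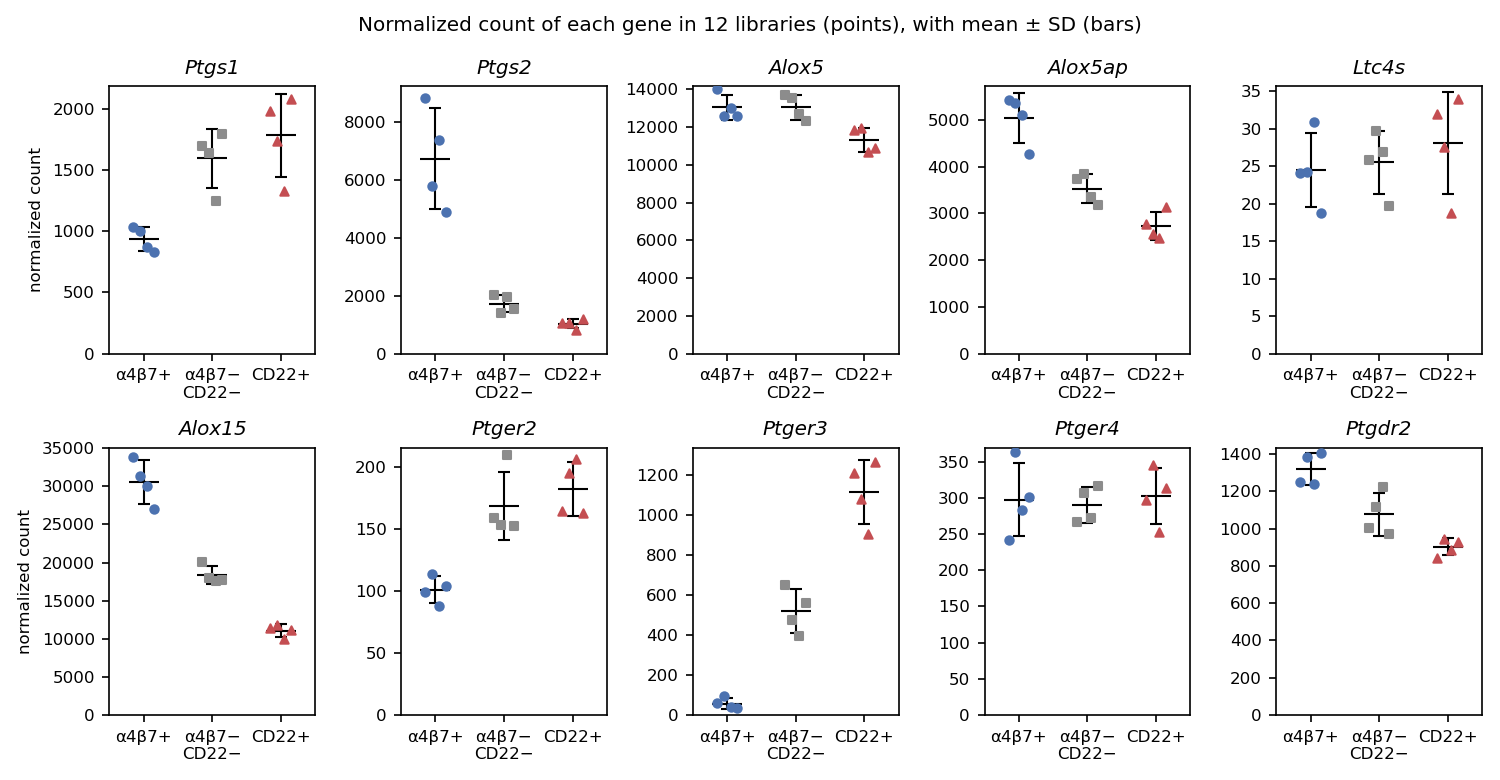
Normalized count (linear axis from 0) of each of the 10 genes in the 12 libraries, 4 points per subset, with the mean as a long bar and the SD as whiskers. Ptgs2, Alox5ap, Alox15, and Ptgdr2 step down from α4β7+ to CD22+ without overlap, Ptger3 steps up, and Ltc4s and Ptger4 overlap in every subset.

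Ptgs2, the inducible cyclooxygenase, was 3.85-fold lower in α4β7− CD22− and 6.44-fold lower in CD22+ than in α4β7+ eosinophils, while Ptgs1, the constitutive cyclooxygenase, was 1.70-fold and 1.89-fold higher. Ptgs2 lies at chr1:150100031-150108227 on the plus strand of GRCm38 and has no annotated overlapping gene. Its normalized counts were 8827, 5785, 7355, and 4895 in the α4β7+ libraries. They were 2007, 1406, 1945, and 1521 in α4β7− CD22− and 1066, 1039, 805.9, and 1195 in CD22+ libraries. The lowest α4β7+ library was thus above the highest library of either other subset, and all 4 CD22+ libraries were below all 4 α4β7− CD22− libraries. The log2 fold change was -1.95 ± 0.18 (SE, n = 4 per subset; limma adjusted p = 3.20e-06) for α4β7− CD22− and -2.69 ± 0.18 (limma adjusted p = 4.69e-08) for CD22+ against α4β7+. Between CD22+ and α4β7− CD22− it was -0.74, with an interval of -1.12 to -0.37, and was not called (limma adjusted p = 0.0627).

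Ptgs1 (chr2:36230426-36252272, plus strand) moved the other way. Its counts were 1040, 1006, 870.5, and 833.9 in α4β7+, 1701, 1646, 1249, and 1797 in α4β7− CD22−, and 1991, 1744, 1328, and 2089 in CD22+ libraries. Every library of both other subsets was above every α4β7+ library, and those 2 subsets overlapped each other, with the library numbered 3 the lowest in both. The log2 fold change against α4β7+ was 0.76 ± 0.14 (limma adjusted p = 0.00222) in α4β7− CD22− and 0.92 ± 0.14 (limma adjusted p = 2.98e-04) in CD22+ cells. CD22+ and α4β7− CD22− differed by 0.15, with an interval of -0.16 to 0.46 that does not exclude a small change in either direction (limma adjusted p = 0.836).

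Because both cyclooxygenases were measured in the same library, their ratio does not depend on how a library was scaled. The ratio of Ptgs2 to Ptgs1 normalized counts was 8.49, 5.75, 8.45, and 5.87 in α4β7+ libraries. It was 1.18, 0.855, 1.56, and 0.846 in α4β7− CD22− and 0.535, 0.596, 0.607, and 0.572 in CD22+ libraries. The means were 7.14 ± 1.54, 1.11 ± 0.336, and 0.577 ± 0.0317 (SD, n = 4), and no 2 subsets overlapped. Per kb of exon, which allows the 2 genes to be compared, Ptgs2 averaged 1466 and Ptgs1 241.4 in α4β7+, and 224.1 and 460.4 in CD22+ libraries, so their order was turned. The mean log2 ratio differed by -2.71, -3.60, and -0.90 in the 3 comparisons, each with p = 0.0286 in a two-sided exact permutation test, the smallest p that 4 against 4 libraries allow. The libraries were reassigned freely, without regard to replicate numbers. Adjusted over the 6 ratio tests made, the exact permutation p was 0.0571 for each, which does not pass 0.05.

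**Figure D2:**
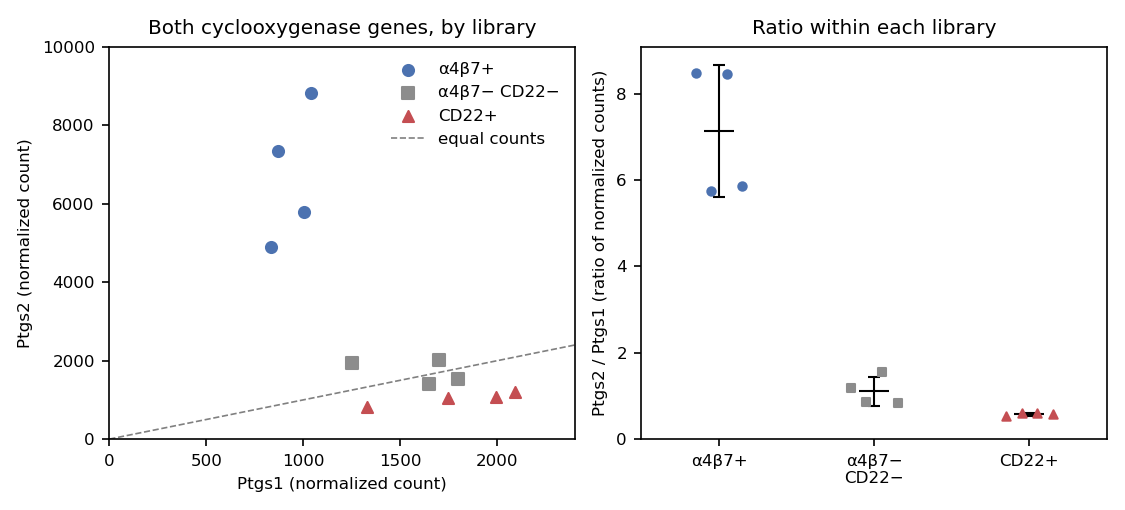
Left, Ptgs2 against Ptgs1 in each of the 12 libraries (normalized counts, linear axes from 0), with a dashed line where both are equal. Right, the ratio of Ptgs2 to Ptgs1 per library with mean ± SD (n = 4 per subset); all α4β7+ libraries are at 5.75 or above and all CD22+ libraries at 0.607 or below.

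Ptgs2 is also an immediate early gene, so a list of 24 immediate early and stress response genes, which cell isolation can induce, was read beside it. In α4β7− CD22− against α4β7+ cells 8 of the 24 were lower and 1 higher, and in CD22+ against α4β7+ cells 10 were lower and 1 higher, with medians of -0.09 and -0.43. Over all genes tested 4.35% were lower and 3.70% higher in the first of these comparisons and 6.39% and 5.60% in the second, so that the 1 higher gene was at the background. The lower ones included Jun, which averaged 5462, 2866, and 1852 across the subsets, Dusp1, which averaged 28795, 16643, and 12516, and Ier3, which averaged 153.5, 24.96, and 16.81. Egr2 was higher, at 258.3, 648.9, and 845.1. Fos averaged 31867, 39660, and 29940 and Egr1 30134, 39511, and 30755, and neither was called. The part of such a response in the Ptgs2 difference was not tested.

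In the leukotriene arm, Alox5 and Alox5ap were abundant and Ltc4s was low, and of the 3 only Alox5ap was called. Alox5 (chr6:116410077-116461178, minus strand), which encodes 5-lipoxygenase, had counts of 14015, 12607, 13016, and 12572 in α4β7+ and of 13706, 13535, 12683, and 12307 in α4β7− CD22− libraries. In CD22+ libraries it had 11832, 11931, 10682, and 10878. The CD22+ libraries were all below those of both other subsets, but by only 1.15-fold, under the size needed for a call (log2 fold change -0.20 ± 0.06; limma adjusted p = 0.0337 against α4β7+ and 0.210 against α4β7− CD22−). With quantile normalization the difference from α4β7+ turned to 0.08. α4β7− CD22− and α4β7+ libraries overlapped and differed by 0.00, with an interval of -0.14 to 0.14.

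Alox5ap (chr5:149264767-149288153, plus strand) encodes FLAP, which presents arachidonic acid to 5-lipoxygenase. Its counts were 5416, 5355, 5112, and 4266 in α4β7+, 3728, 3835, 3345, and 3184 in α4β7− CD22−, and 2763, 2549, 2472, and 3130 in CD22+ libraries. The 3 subsets did not overlap and went down in that order. Alox5ap was 1.85-fold lower in CD22+ than in α4β7+ cells (log2 fold change -0.88 ± 0.10; limma adjusted p = 9.74e-06). In α4β7− CD22− cells it was 1.43-fold lower, which passed the p but not the size threshold (limma adjusted p = 0.00219) except when α4β7+ replicate 4 was left out (log2 -0.59), and CD22+ and α4β7− CD22− cells differed by -0.37 (limma adjusted p = 0.102). Of its exonic sequence, taken as 31-base words, 9.45% was shared with other annotated genes, most with the antisense Gm19719, which has no row in the table.

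Ltc4s (chr11:50236461-50238616, minus strand), the enzyme that makes leukotriene C4, was low in every library. It ranged from 18.75 to 30.93 in α4β7+, from 19.67 to 29.71 in α4β7− CD22−, and from 18.69 to 34.02 in CD22+ libraries. The 3 ranges overlapped almost wholly, and the log2 fold changes were 0.06, 0.18, and 0.11, with SE 0.31. At this depth the interval against α4β7+ reached from -0.60 to 0.72 in α4β7− CD22− and from -0.48 to 0.83 in CD22+ cells, so changes of up to about that size were not detectable. The sequence of Ltc4s shares 19.5% of its words with other annotated genes, most with the antisense Gm26542, which has no row of its own. Part of these few reads may therefore not have been assigned with certainty. Lta4h, which makes leukotriene B4 from the same precursor, averaged 22083, 26331, and 23154, and the ratio of Ltc4s to Lta4h counts was 0.00111, 9.66e-04, and 0.00121 in the 3 subsets. The exact permutation p of that ratio was 0.343, 0.629, and 0.200. Mgst2, another enzyme able to make leukotriene C4, averaged 84.59, 85.32, and 80.62 and did not pass the test.

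Alox15 was the most abundant of the 10 genes per kb of exon and stepped down from subset to subset. It encodes a lipoxygenase that makes hydroxylated fatty acids and lipoxin precursors and lies at chr11:70344152-70352031 on the minus strand, without an annotated overlap. Its counts were 33896, 31348, 29994, and 26988 in α4β7+ libraries. They were 20063, 17975, 17543, and 17749 in α4β7− CD22− and 11428, 11854, 9917, and 11109 in CD22+ libraries. No subset overlapped another. Alox15 was 1.66-fold lower in α4β7− CD22− (log2 fold change -0.73 ± 0.08; limma adjusted p = 1.81e-05) and 2.76-fold lower in CD22+ than in α4β7+ cells (-1.46 ± 0.08; limma adjusted p = 7.37e-09). The step from α4β7− CD22− down to CD22+ cells was also 1.66-fold (-0.73 ± 0.08; limma adjusted p = 2.35e-04). Alox12e, an epidermal lipoxygenase whose gene lies 21.5 kb away on the same strand, fell in the same comparisons, from 541.3 to 257.0 and 122.6. Its log2 fold changes were -1.08, -2.16, and -1.08 (limma adjusted p = 5.67e-04, 4.06e-07, and 0.00601).

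Of the receptors for prostaglandin E2, Ptger3 and Ptger2 were higher in both other subsets than in α4β7+ cells and Ptger4 was not called. Ptger1, the receptor EP1, which is not among the 10 genes, averaged 78.36, 70.41, and 45.79 and was not called either (log2 -0.72 in CD22+ against α4β7+; limma adjusted p = 0.124). Ptger3 (chr3:157566892-157645888, plus strand), the receptor EP3, had the largest change of the 10 genes, 9.38-fold higher in α4β7− CD22− and 20.3-fold higher in CD22+ than in α4β7+ cells. Its counts were 60.35, 93.38, 40.02, and 36.88 in α4β7+, 652.8, 475.5, 394.9, and 563.1 in α4β7− CD22−, and 1213, 1081, 907.2, and 1269 in CD22+ libraries. The 3 subsets did not overlap, and the library numbered 3 was again the lowest in both higher subsets. The log2 fold changes against α4β7+ were 3.23 ± 0.25 (limma adjusted p = 7.28e-07) and 4.34 ± 0.25 (limma adjusted p = 1.31e-08). The rise from α4β7− CD22− to CD22+ was 2.16-fold (1.11 ± 0.25; limma adjusted p = 0.0465), close to the threshold. Its size stayed at 0.99 to 1.23 on the log2 scale over all alternatives, but the call was lost when any library of either subset, or α4β7+ replicate 1, was left out, and with a pseudocount of 0.1, no filter, or no variance trend (limma adjusted p of up to 0.158 over all alternatives).

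Ptger2 (chr14:44988195-45003820, plus strand), the receptor EP2, which raises cAMP, rose less. It ranged from 87.90 to 113.4 in α4β7+, from 152.7 to 209.5 in α4β7− CD22−, and from 162.7 to 206.2 in CD22+ libraries. Both other subsets were above α4β7+ in all libraries and overlapped each other. The fold was 1.65 (log2 0.73 ± 0.16; limma adjusted p = 0.00610) in α4β7− CD22− and 1.79 (0.84 ± 0.16; limma adjusted p = 0.00135) in CD22+ cells. CD22+ and α4β7− CD22− differed by 0.12 (interval -0.23 to 0.45; limma adjusted p = 0.899).

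Ptger4 (chr15:5206661-5244187, minus strand), the receptor EP4, which also raises cAMP, ranged from 242.4 to 363.7, from 266.3 to 316.8, and from 252.5 to 345.5. All subsets overlapped, and the differences of -0.02, 0.03, and 0.05 had intervals within -0.33 and 0.35 (limma adjusted p = 0.946, 0.918, and 0.957). Its words were shared at 15.2%, most with the pseudogene Gm15937, and its exons also overlap Ttc33 on the opposite strand. Gm15937 averaged 3.842, 13.66, and 15.40 and Ttc33 averaged 327.3, 243.3, and 265.4.

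Ptgdr2 (chr19:10937160-10942511, plus strand) encodes the prostaglandin D2 receptor CRTH2, through which eosinophils migrate. It went down in order without overlap, from 1241 to 1405 in α4β7+, 968.5 to 1221 in α4β7− CD22−, and 843.8 to 944.9 in CD22+ libraries. The change was 1.46-fold in CD22+ against α4β7+ (log2 -0.55 ± 0.09; limma adjusted p = 3.77e-04) and 1.23-fold in α4β7− CD22− (-0.30 ± 0.09; limma adjusted p = 0.0353), below the 1.5-fold needed for a call in both. Its exons overlap those of Ccdc86 on the opposite strand and share 38.3% of their words with other genes. Ccdc86 averaged 452.1, 288.8, and 341.3, and how the pseudoaligner was set for strand is not given in the sources used here, so reads of the pair may not be wholly separated. Ordered steps without overlap over all 3 subsets were thus seen downwards in Ptgs2, Alox5ap, Alox15, and Ptgdr2, as in 1.61% of all genes tested, and upwards in Ptger3, as in 0.905%.

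**Figure D3:**
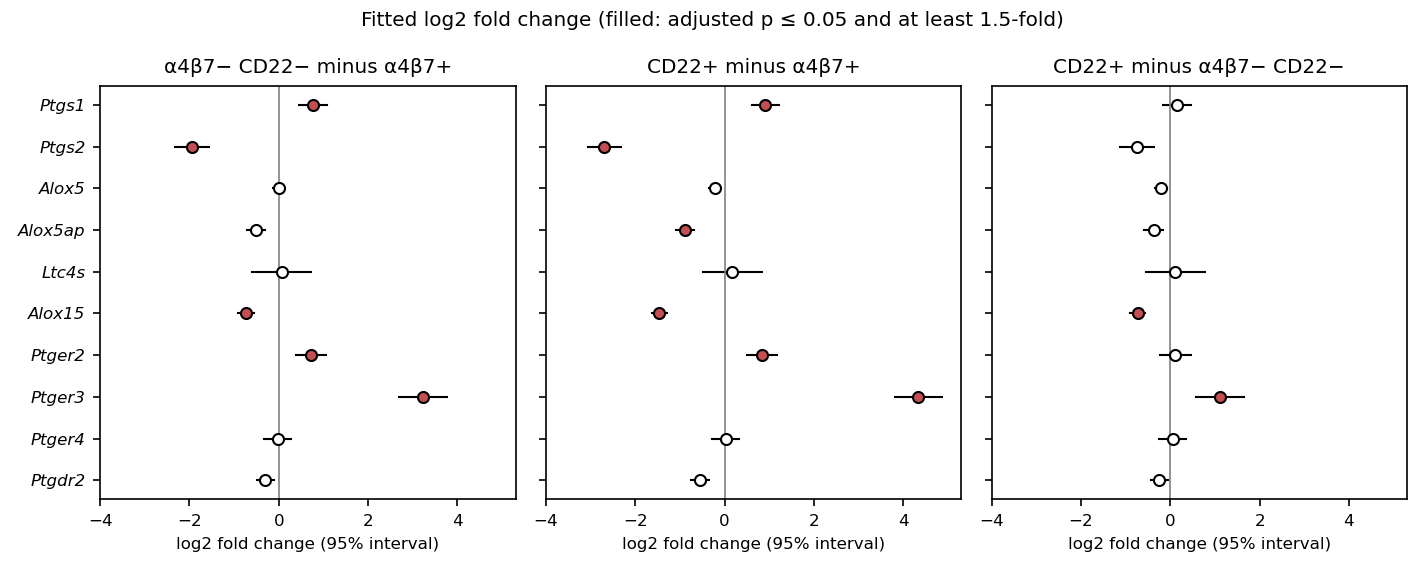
Fitted log2 fold change with its 95% interval for the 10 genes in the 3 comparisons, in panels with the same linear axis; filled points passed the adjusted p and the 1.5-fold size. Ptger3 lies farthest to the right and Ptgs2 farthest to the left in both comparisons with α4β7+, and only Ptger3 and Alox15 are filled between CD22+ and α4β7− CD22−.

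Compared per kb of exon by the mean over the 12 libraries, Alox15, Alox5, and Alox5ap were the highest of the 10 genes and Ltc4s the lowest. In α4β7+ libraries alone, Ltc4s averaged 24.16, above Ptger2 and Ptger3. Among the 15242 tested genes with an annotated length, Alox15 ranked 51 with a mean of 8145 normalized counts per kb over the 12 libraries, Alox5 ranked 179 with 3040, and Alox5ap ranked 213 with 2650. Ptgs2 (688.6 per kb), Ptgdr2 (415.6), and Ptgs1 (371.1) ranked 967 to 1865, and Ptger3 (99.42), Ptger4 (44.63), Ptger2 (29.00), and Ltc4s (25.67) ranked 5733 to 9948. Of the 4 receptors among the 10 genes, Ptgdr2 had the highest mean level per kb in every subset. Among the 3 E2 receptors of the 10 genes the order changed: in α4β7+ libraries Ptger4 averaged 44.74 per kb, Ptger2 19.47, and Ptger3 10.14, whereas in CD22+ libraries Ptger3 averaged 196.4, Ptger4 45.45, and Ptger2 35.05. In α4β7− CD22− libraries Ptger3 already led with 91.70, followed by Ptger4 with 43.71 and Ptger2 with 32.48.

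**Figure D4:**
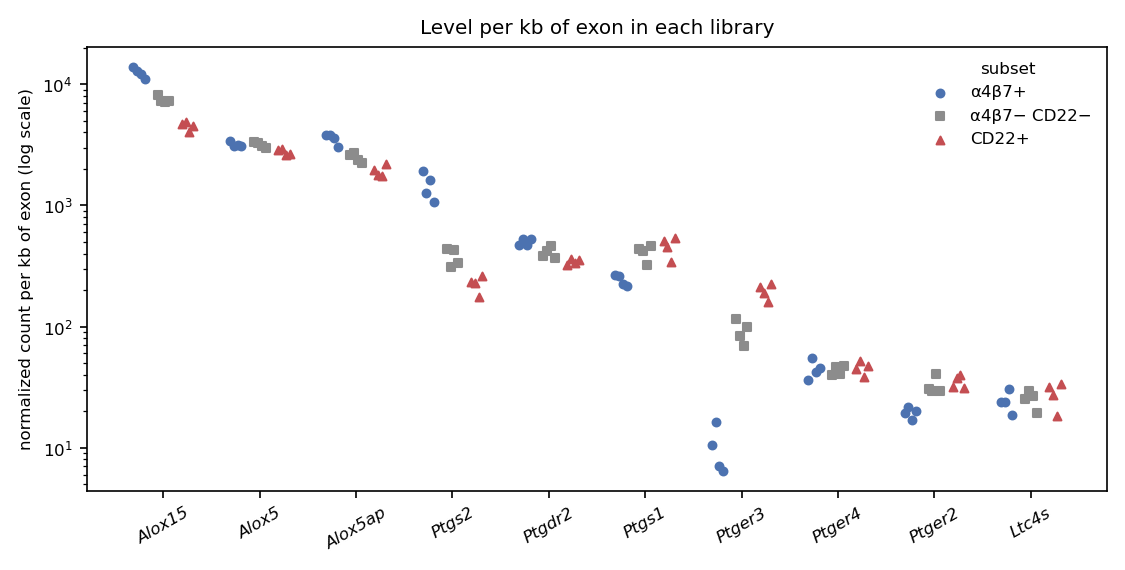
Normalized count per kb of exon (log axis) of each gene in the 12 libraries, with the subsets side by side and genes ordered by their mean over all libraries. Alox15, Alox5, and Alox5ap lead, Ptger3 moves from the lowest of the 10 in α4β7+ to above Ptger4 and Ptger2 in the other subsets, and Ltc4s stays near 25.67 per kb.

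The other genes of the pathway were read from 6 lists of 65 genes, 53 of which were tested. Of these, 3 were higher and 6 lower in α4β7− CD22− than in α4β7+, 4 were higher and 11 lower in CD22+ than in α4β7+, and 1, Alox12e, was lower in CD22+ than in α4β7− CD22−. Over all genes tested the shares were 3.70% higher and 4.35% lower, 5.60% and 6.39%, and 0.210% and 0.393%, so the higher counts were near the background. The list's median log2 fold change was -0.12, -0.23, and -0.08. In the leukotriene and lipoxygenase enzyme list, 3 of 15 tested genes were higher in each comparison with α4β7+, and 2 and 3 were lower. Ggt5, which turns leukotriene C4 into D4, averaged 404.2, 946.5, and 989.8 in this order of subsets (log2 1.22 and 1.29; limma adjusted p = 3.56e-06 and 8.48e-07 against α4β7+). Dpep2, a dipeptidase able to turn leukotriene D4 into E4, had counts of 729.1, 652.1, 519.7, and 493.2 in α4β7+, 2766, 2843, 2598, and 2724 in α4β7− CD22−, and 3941, 3609, 3624, and 3827 in CD22+ libraries. The 3 subsets did not overlap, and its log2 fold change was 2.21 ± 0.11 and 2.66 ± 0.11 against α4β7+ (limma adjusted p = 1.95e-08 and 4.58e-10). Dpep3, a related dipeptidase gene 5.51 kb away, averaged 15.33, 119.1, and 156.6. A second row for Dpep2 averaged 67.01, against 2361 for the row used, and 41.0% of the words of that row's gene occur in other annotated genes, so its reads may be split.

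Downstream of arachidonic acid, none of the 8 prostanoid synthases tested met both the p and the size needed for a call, which is near the background, since the highest share of all genes called in 1 direction was 6.39%. Tbxas1, thromboxane synthase, averaged 4027, 3604, and 3238 and passed the p alone, at 1.24-fold lower in CD22+ than in α4β7+ cells (limma adjusted p = 0.0115). Cbr1, a carbonyl reductase that acts on prostaglandins, averaged 211.0, 160.5, and 150.6 and did so at 1.40-fold (limma adjusted p = 0.0433). Ptges3, the cytosolic E synthase, averaged 1824, 1740, and 1673. Hpgds, the D synthase, averaged 89.83, 106.9, and 75.64, and Ptges, the inducible E synthase, 18.57, 25.29, and 35.15. Upstream, the release list had 2 of 13 lower in α4β7− CD22− and 4 of 13 lower in CD22+ than in α4β7+ cells, where 4.35% and 6.39% of all genes were. Pla2g4a, the cytosolic phospholipase A2 whose gene lies 139 kb from Ptgs2, averaged 1774, 1305, and 1114 (log2 -0.68 in CD22+; limma adjusted p = 2.72e-04). Lpcat3, which puts arachidonate back into phospholipids, averaged 928.4, 544.1, and 433.2, and Lpcat2, which makes platelet-activating factor, 6504, 5095, and 4288. Mgll, monoacylglycerol lipase, averaged 2762, 2117, and 1683, and Pla2g15, a lysosomal phospholipase, 264.4, 144.7, and 181.0, called in α4β7− CD22− only.

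Among the other enzymes, Cotl1, a 5-lipoxygenase binding protein, averaged 33529, 19145, and 15170, and Gpx4, which reduces lipid hydroperoxides, 1859, 1311, and 1069. Of the other receptors, Ltb4r1, for leukotriene B4, averaged 978.6, 827.1, and 632.7 and was lower in CD22+ than in α4β7+ cells (log2 -0.62; limma adjusted p = 1.78e-04). Ptgir, the prostacyclin receptor, had 31.57, 41.32, 45.78, and 36.56 in α4β7+ libraries and between 0 and 5.325 in the other 8, where the values were near the floor of 3 reads. Cmklr1, a receptor for chemerin, averaged 103.6, 38.07, and 45.36 and was called lower in both comparisons with α4β7+. Its α4β7− CD22− libraries (17.22 to 69.44) overlapped those of α4β7+ (55.97 to 132.4). The call in CD22+ cells was close to the threshold (limma adjusted p = 0.0498). Cyp4f18, which breaks down leukotriene B4, averaged 7895, 6346, and 5004 and was lower in CD22+ than in α4β7+ cells, while Cyp4f16 of the same family averaged 58.62, 77.28, and 117.9 and was higher. Cysltr1 and Cysltr2, the cysteinyl leukotriene receptors, did not pass the test, at 83.34 to 90.39 and 12.94 to 18.79 on average. Pathway genes with means of at least 1000 that were not called were Pla2g7, platelet-activating factor acetylhydrolase, at 71148, 75642, and 67291, besides Lta4h, Acsl4, Daglb, Abcc1, Tbxas1, and Ptges3.

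**Figure D5:**
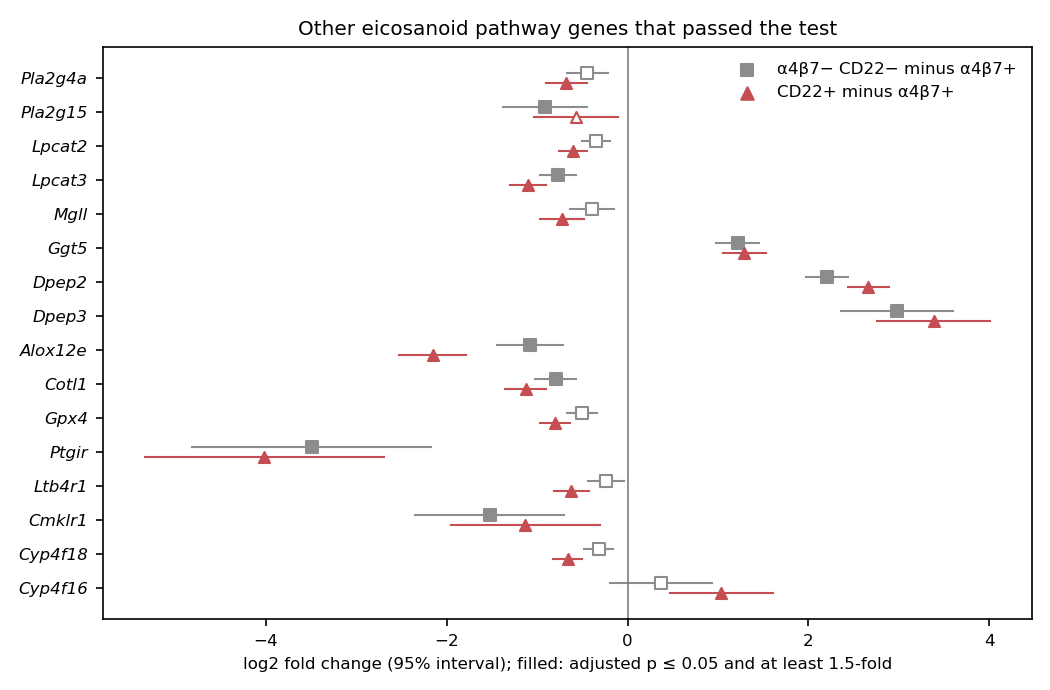
Log2 fold change with 95% interval (linear axis) of the 16 other pathway genes called in at least 1 comparison, for α4β7− CD22− (squares) and CD22+ (triangles) against α4β7+; filled symbols passed the test, and CD22+ against α4β7− CD22− is not drawn. Dpep3, Dpep2, Ggt5, and Cyp4f16 lie to the right of 0 and the other 12 to the left.

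For each of the 6 genes called, the 3 genes with the most similar log2 profile over the 12 libraries were listed by Pearson's r. All points share the subset differences and the libraries, so r describes the likeness of the profiles. For Ptger3 they were Ppfibp2 (0.993), Cnpy3 (0.991), and Cyp1b1 (0.991), a cytochrome P450 gene that averaged 478.3, 2834, and 4409 across the subsets. For Ptgs1 they were Il1b (0.976), the cytokine IL-1β, which averaged 17294, 30634, and 33447, Cd82 (0.973), and Lpcat1 (0.972). For Ptger2 they were Hepacam2 (0.967), Slf2 (0.958), and Zfyve27 (0.955). For Ptgs2 they were Tlr13 (0.987), a receptor for bacterial RNA, Eno1 (0.987), a glycolytic enzyme, and Cd69 (0.985), an activation marker, which averaged 4366, 1136, and 585.4. For Alox15 they were Gapt (0.987), Pot1b (0.984), and Ccl6 (0.984), a chemokine that averaged 28090, 6975, and 1593. For Alox5ap they were Pfn1 (0.979) and Coro1a (0.978), both actin regulators, and Ilk (0.973). Among the 10 genes themselves r was 0.96 between Ptgs2 and Alox15, 0.93 between Ptgs1 and Ptger3, and -0.95 between Ptgs2 and Ptger3.

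Marker lists of other cells were read beside these differences. Per the study's methods, eosinophils were gated as live CD45+ CD11b+ SiglecF+ cells without MHC class II and Ly6g, a gate that leaves out Ly6g+ neutrophils and CD45− epithelium. The summed neutrophil list was at 15156 to 22892 in α4β7+, 7353 to 9383 in α4β7− CD22−, and 4750 to 5166 in CD22+ libraries, with 6 of its 9 genes over the filter. Most of that sum was Retnlg, which averaged 18828, 6709, and 3053, while S100a8 was at 0 in 11 and Camp in 10 of the 12 libraries, Ly6g did not exceed 10.78, and Cxcr2 averaged 780.3, 1338, and 1772. The tuft cell list, of interest because tuft cells also express cyclooxygenase and 5-lipoxygenase genes, summed to 96.87 to 289.3, 63.15 to 180.8, and 36.64 to 117.0, with 3 of 7 genes over the filter and Gnat3 at 0 in 10 libraries. The macrophage list, with 10 of 10 genes over the filter, summed to 3127 to 3904, 2776 to 3905, and 3552 to 5407, and the epithelial list, with 8 of 8, to 2452 to 5930, 1686 to 4173, and 967.3 to 6592. The T and B cell list, with 9 of 9, summed to 4126 to 8209, 3155 to 7681, and 4019 to 8251, the Paneth cell list, with 5 of 6, to 516.0 to 893.0, 333.3 to 612.1, and 474.1 to 1749, and the fibroblast and endothelium list, with 8 of 8, to 10688 to 12223, 12810 to 13945, and 11681 to 12550. Most of the fibroblast and endothelium sum was Pecam1, which averaged 9894, 12127, and 10535. Col3a1, the next highest of that list, averaged 578.7, 393.4, and 604.7. Jchain, at 4679, 4883, and 5705, made most of the T and B cell sum. Csf1r (1905, 1578, and 1593) and Lyz2 (576.0, 712.5, and 1485) made most of the macrophage sum. The part of these cells in the differences was not tested.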

How the data were processed

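RNA sequencing values of 12 libraries, 4 per eosinophil subset, were analysed. The authors used a stranded total RNA kit with 3 ng of input, and their processing notes name Trimmomatic 0.39, kallisto 0.46.1, DESeq2 1.38.2, and GRCm38 (mm10). The deposited signal values are the normalized counts that the authors obtained from DESeq2; the strand setting and annotation release are not given in the sources used here. Such values are not whole counts, so count models were not run, and depth could only be estimated from the step of the low values. Intervals from that step would cover counting error only.

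After a filter that kept averages over 10, limma 3.58.1 (R 4.3.3) was fitted to log2(normalized count + 1) of all 12 libraries, with subset as the only factor and a variance trend, and p was adjusted by Benjamini-Hochberg within each comparison. Fold changes are on that scale and understate low genes. Ratios within libraries were compared with exact permutation tests. Exons, overlaps, and shared 31-base words came from GENCODE for GRCm38, where 35968 of 36047 identifiers matched, and promoters from RefSeq. Symbols on several rows were read from the row with the highest mean. Per kb values use the union of exons of all transcripts.

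The members and lists were chosen with earlier results of these data known. Named were all 10 members, pathway genes called in any comparison or with a mean of at least 1000, and for each called member the 3 most alike genes, and genes of the response and marker lists and the uncalled Hpgds, Ptges, Cbr1, Mgst2, Cysltr1, Cysltr2, and Ptger1 were named after their values were seen. As alternatives, the pseudocount was set to 0.1 or 10, the filter was dropped or set at 50, and the following were run in turn: rescaling to the 75th percentile, quantile normalization, no trend, only the subsets compared, a replicate block, the adjusted p alone, and each library left out. Python 3.11.15 with pandas 2.3.3, scipy 1.17.1, and matplotlib 3.10.9 was used. Replicate numbers are shared between subsets, and the labels do not state whether this means pairing. Deviations from the subset means correlated in all 4 same-number pairs of CD22+ with α4β7− CD22− (r = 0.135 to 0.203), but not in every pair with α4β7+. The main fit and the ratio tests took the libraries as independent, and only the replicate block used the numbers.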

Additional observations from a re-analysis of the deposited data

Results flagged for a closer look

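Each gene was checked in each subset for a library that stood apart, by Dixon's ratio of the gap to the range. Of the 30 groups tested, 1 passed: Ptger2 in α4β7− CD22− replicate 3, at a normalized count of 209.5 against 152.7 to 159.0 in the other libraries (ratio 0.888). Chance flags about 1 group in 20. Ptger2 was called higher in α4β7− CD22− than in α4β7+ cells with every library left out in turn, that library included.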

How the results depend on the processing

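For the log2 fold changes of the 10 genes in 3 comparisons, 594 of 627 values under an alternative kept their direction and their call, or its absence, 13 lost and 4 gained a call, and 16 turned in sign. The calls of Ptgs1, Ptgs2, Ptger2, and Ptger3 against α4β7+ and of Alox5ap in CD22+ against α4β7+ held under every alternative run, and those of Alox15 did except that in α4β7− CD22− against α4β7+ quantile normalization put it under 1.5-fold (-0.58). Between CD22+ and α4β7− CD22−, Ptger3 was not called with a pseudocount of 0.1, without a filter, or without the trend, although its log2 fold change stayed at 0.99 to 1.23 under every alternative, so that 1 gene of the 10 was called in each, and with a library left out 1 to 3 were called. Ptgs2 was called there when only these subsets were fitted (adjusted p = 0.0404 at the lowest over its alternatives), and without α4β7+ replicate 1 or 4. Alox5ap was called in α4β7− CD22− against α4β7+ without α4β7+ replicate 4 (-0.59). Ptgdr2 in α4β7− CD22− against α4β7+, under the size threshold throughout, had an adjusted p of 0.0168 to 0.108. Genes called by the adjusted p alone numbered 2265, 3223, and 164, against 1228, 1829, and 92 with the size threshold, and the third comparison gave 54 without the trend. Signs turned in genes that were not called: with quantile normalization Alox5 was at 0.08 and Ptger4 at -0.015 in CD22+ against α4β7+. With a library left out, Alox5 ranged from -0.023 to 0.035, Ltc4s from -0.054 to 0.177, and Ptger4 from -0.115 to 0.079 in α4β7− CD22− against α4β7+, Ptger4 from -0.064 to 0.13 in CD22+ against α4β7+, and Ltc4s from -0.001 to 0.29 and Ptger4 from -0.016 to 0.134 in CD22+ against α4β7− CD22−.

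The same replicate numbers occur in each subset. The correlation of deviations was over 0.1 in 7 of 12 same-number pairs (-0.059 to 0.203), and the own number gave the best match in 8 of 12. Libraries of the same number were thus alike for CD22+ with α4β7− CD22−, and not for every pair with α4β7+. The main p-values and intervals do not use this likeness. With a replicate block 1254, 1843, and 100 genes and 5, 6, and 2 of the 10 genes were called, and no call of the 10 genes changed. The Ptgs2 to Ptgs1 log2 ratio stayed within 1 SD with a pseudocount of 0 or 10 and with each library left out, the alternatives run for it. With few reads, Ltc4s and Ptgir are limited by depth.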
